A study of Mus musculus with 12 samples.

Results

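The data here are the open-chromatin regions at 8 mouse genes, Rad51b, Plcl1, Atxn1, Lamc1, Samsn1, Sgip1, Cwc27 and Ceacam15, in CD4 T cells of the bone marrow. The genes were chosen by measured values: they were among those with most regions that had a peak in converted donor regulatory T cells and not in conventional T cells. They hold 192 of the 76882 regions obtained by merging the peaks of all libraries. The study sorted Balb/c T cells in 6 groups of 2 ATAC-seq libraries, 12 in all. Donor cells carried the 6.5TCR, a transgenic receptor specific for HA, and were given to Aire-HA hosts; bone marrow subsets were taken at day 14. Donor cells (CD45.2+) were either unconverted (donor Tconv, CD25-) or converted to regulatory T cells (donor Treg, CD25+ LAP+). Host conventional cells (host Tconv), called wild type in their titles, were CD45.1+CD45.2- and CD25-. The host Treg groups differ from them in the labelled CD45 markers: the labels list host pTregs (Nrp1-) and host tTregs (Nrp1+) as CD45.1+CD45.2+CD25+CTLA4+. The iTreg group was induced in culture and sorted as CD25+ LAP+, and its library names speak of wild-type Balb/c cells. The labels do not give the age of the mice, the number of animals per library, or whether replicates came from separate animals.

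Regulatory T cells (Treg) restrain other immune cells, and conventional T cells can turn into them outside the thymus after meeting antigen. ATAC-seq reads where the transposase Tn5 can enter chromatin, so its peaks mark promoters and candidate distal regulatory elements, and the latter often separate related T cell states. The 8 genes do not belong to a single known pathway. Rad51b encodes a protein of DNA repair by homologous recombination, Atxn1 a nuclear protein that acts with the transcriptional repressor Capicua, and Cwc27 a cyclophilin-like protein of the spliceosome. Plcl1 encodes a phospholipase C-like protein without catalytic activity, Samsn1 an adaptor with SH3 and SAM domains expressed in blood cells, and Sgip1 a protein of clathrin-mediated endocytosis. Lamc1 encodes laminin gamma 1, a chain of basement membranes, and Ceacam15 a member of the carcinoembryonic antigen family of adhesion molecules.

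Each library came as 1 peak list of 28394 to 63207 peaks, longest in the iTreg libraries. Their sequencing depth is unknown, so a region without a peak was not detected as open and is not thereby closed, and a peak present in more of the cells cannot be told apart from one that is wider open in each cell. The library names carry the run code BW13 for donor and host Tconv libraries, DR31 for the host Treg libraries and none for iTreg, so differences between these 3 sets cannot be told apart from the run. They also carry a number of unstated meaning, at most 17000 in the in vivo Treg libraries and 42000 to 50000 in all others, which moves with the donor Treg and Tconv contrast and with that of host Treg and iTreg; its part in the results was not tested. Peaks lay within 1 kb of a gene end at all 6 pan-T and CD4 markers (Cd3e, Cd3d, Cd3g, Cd4, Lck and Cd2) in every library. Of 6 Treg markers, 4 or 5 had one in each library, and that at Foxp3 had one in all in vivo Treg and donor Tconv libraries and in no host Tconv or iTreg library. Markers of other cell types had 0 to 2 of 5 for B cells, 0 or 1 of 3 for NK cells, 0 or 1 of 2 for CD8 T cells and 2 of 3 in every library for erythroid cells. Of 5 myeloid markers, none had one in the in vivo Treg libraries, 1 (Itgam) in all 4 conventional libraries and 2 (Itgam and Lyz2) in both iTreg libraries, so these move with the contrasts of donor Treg with Tconv and of host Treg with iTreg. Csf1r, Cebpe and Mpo had none in any library; the part of all these markers in the results was not tested.

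A region is called opened here where each donor Treg library and none of the 4 conventional libraries had a peak; the word names that pattern and no test. Of the 192 regions, 39 were opened: 8 at Rad51b, 5 each at Plcl1, Atxn1, Lamc1 and Cwc27, 4 each at Samsn1 and Sgip1, and 3 at Ceacam15. Without donor Treg replicate 1 there are fewer conditions to meet, and 2.53% of all regions were opened. Rad51b then had 10, Lamc1 8, Plcl1, Atxn1 and Cwc27 6 each, Samsn1 5, Sgip1 4 and Ceacam15 3. With all libraries, 1.46% of all regions were opened, 1122 in number. These values chose the genes and are given as a description. Against donor Tconv alone, 39 of 139 regions with a peak in these groups were found in donor Treg alone, and 3 in donor Tconv alone, beside 2.41% and 19.9% of all regions. Against host Tconv, 47 of 133 were found in donor Treg alone, and 3 in host Tconv alone, beside 4.18% and 12.8%. The choice was no strict ranking. By the net number of regions against donor Tconv, the lowest of the 8 genes was Ceacam15 (net 3), and Emsy (net 5), Itgb8, Hdac9, Sh3rf1 and Ikzf2 (net 4 each) stood above it without being chosen. Against host Tconv the lowest of the chosen genes were Samsn1 and Sgip1 (net 4 each), below Hdac9 (net 11), Ikzf2 (net 8), Emsy (net 6), and Thsd7b and Sh3rf1 (net 5 each).

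The whole set of 192 regions was spread over the libraries as follows. The donor Treg libraries had a peak at 109 and 117 of them, host pTreg at 115 and 100, host tTreg at 87 and 118, and iTreg at 110 and 116. Donor Tconv had one at 82 and 75 and host Tconv at 56 and 71. The conventional libraries were thus the lowest, with no overlap with any Treg library, which the choice of genes favours. The host tTreg libraries spanned the range of the other Treg groups, and the lower of them is the shortest list of the series. Per 10000 regions with a peak, the 8 genes had 34.9 and 35.0 in donor Treg, 31.3 and 31.8 in host pTreg, 32.2 and 34.1 in host tTreg, and 19.1 and 18.5 in iTreg. Donor Tconv had 17.7 and 17.3 and host Tconv 15.7 and 16.2. On this scale the host Treg and iTreg libraries did not overlap, and the iTreg values lay nearer to the conventional ones. The plain counts of these libraries did overlap, and the longer iTreg lists enlarge the divisor. None of these libraries served to choose the genes, yet the scale is not independent of the choice. Of all opened regions, 66.6% had a peak in both host pTreg libraries, 61.1% in both host tTreg and 41.3% in both iTreg libraries.

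**Figure D1:**
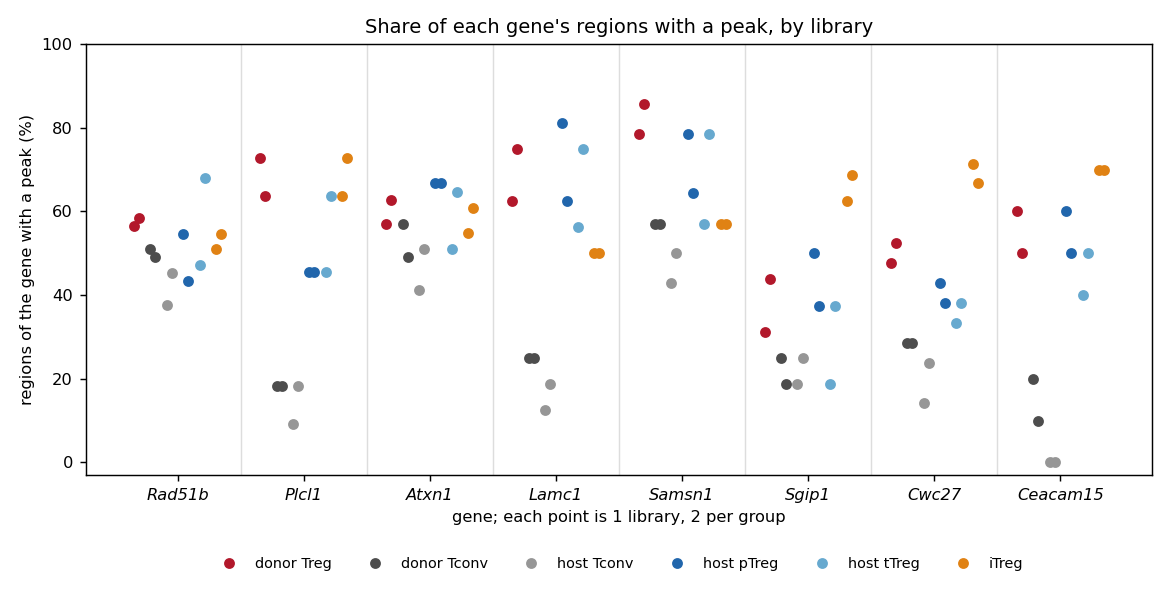
Share of each gene's regions with a peak (y axis, %) by gene (x axis); each point is 1 library, 2 per group, coloured by group. At Ceacam15 both host Tconv libraries sit at 0 and both iTreg libraries at 70.0%, and at Rad51b all libraries lie between 37.7% and 67.9%.

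The other Treg groups had peaks at many of the opened regions, at about the rate of opened regions anywhere in the genome. Both host pTreg libraries had a peak at 26 of the 39, which is 66.7% beside 66.6% of all opened regions. Both host tTreg libraries had one at 23, or 59.0% beside 61.1%, and both iTreg libraries at 15, or 38.5% beside 41.3%. By single library the shares were 76.9% and 66.7% in host pTreg, 59.0% and 87.2% in host tTreg, and 41.0% and 46.2% in iTreg. The presence of these regions in other Treg libraries was therefore near the background, and no result about the 8 genes in particular. No test was made, since 2 libraries against 2 cannot go below a p of 0.333 per region in Fisher's exact test. With a peak in at least 1 library of the group, a setting chosen after seeing the data, the counts were 30, 34 and 19, beside 83.4%, 89.0% and 47.4% of all opened regions.

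**Figure D2:**
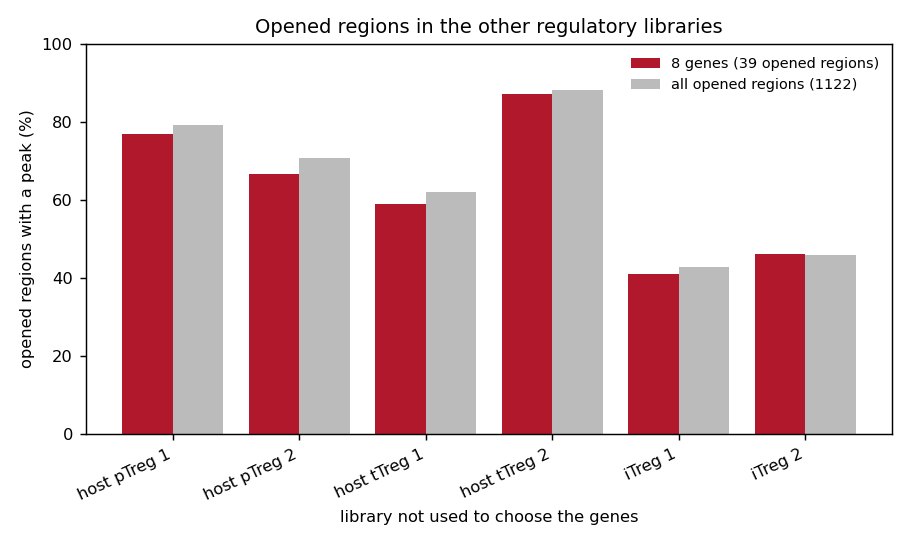
Opened regions with a peak (y axis, %) in each host pTreg, host tTreg and iTreg library (x axis). Red bars are the 39 opened regions of the 8 genes and grey bars all 1122; in each library the bars lie close together, and the iTreg bars (41.0% and 46.2% for the 8 genes) are the lowest.

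Of the 39 opened regions 22 had a peak in all 4 host Treg libraries, and thus in all 6 in vivo Treg libraries and no conventional one; over all regions 0.764% had this pattern. With donor Treg left out of the pattern, 25 of the 192 were in all 4 host Treg and no conventional library, beside 1.18% of all regions; 22 of these 25 are the same opened regions, so nothing is read from either share. Among these 22, 10 also had a peak in both iTreg libraries (25.6% of the 39, beside 23.4% of all opened regions), 11 in neither (28.2% beside 26.6%) and 1 in a single one (2.56% beside 2.32%). Of all opened regions 52.3% reached all 4 host Treg libraries, beside 56.4% of the 39. At the other end, 3 opened regions had no host Treg peak (7.69%, beside 6.6% of all opened regions): 1 at Rad51b with no peak outside donor Treg, and 1 each at Plcl1 and Samsn1 with a peak in both iTreg libraries. Opened regions shared with all host Treg libraries had wider donor Treg peaks, with a median of 407.5 bp (mean of the 2 libraries, n = 22) against 253 bp for the rest (n = 17). Over all opened regions these medians were 339 and 236 bp, so the gap is not confined to the 8 genes. The plot of peak widths shows each of the 39 by library.

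**Figure D3:**
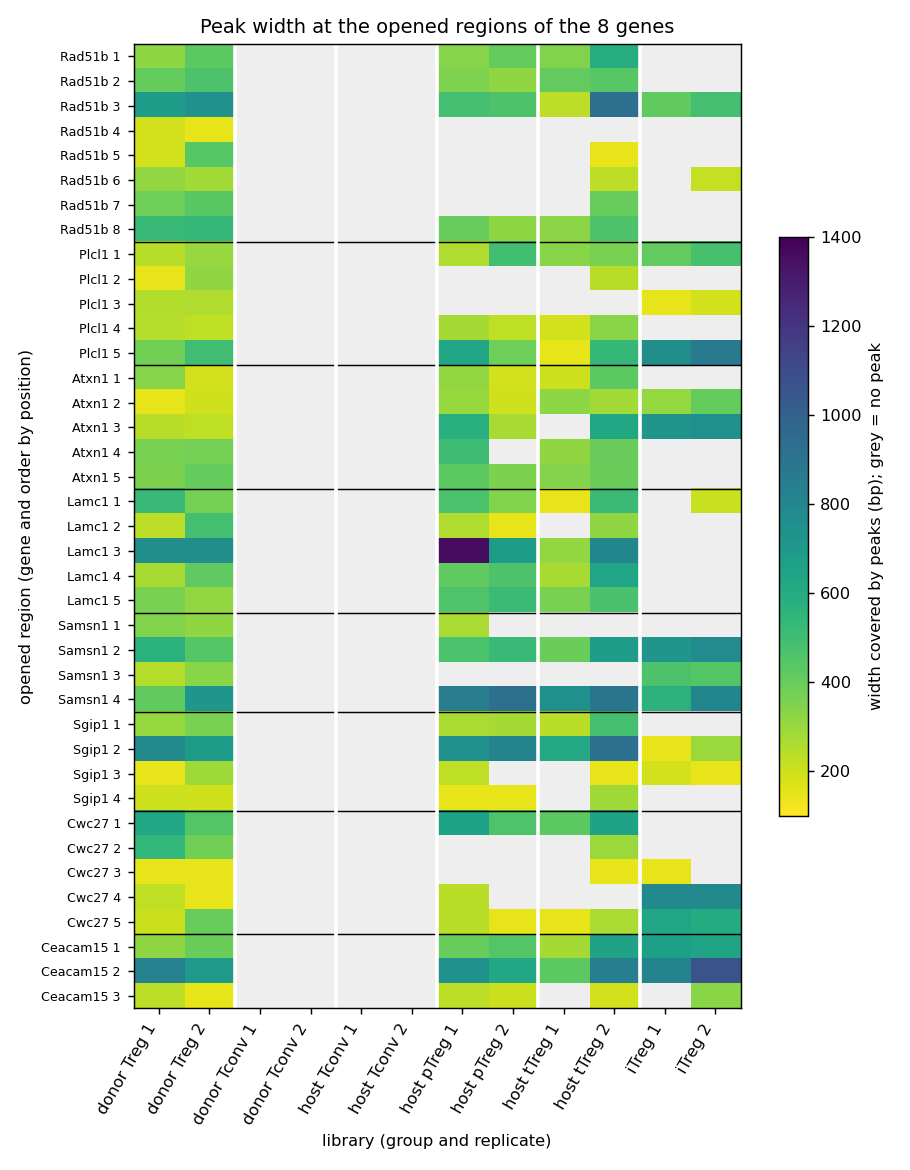
Width covered by peaks (colour, bp; grey is no peak) at the 39 opened regions (rows, by gene and numbered by position) in the 12 libraries (columns). The 4 conventional columns are empty by the choice of regions, 22 rows are filled in all 4 host Treg columns, and 15 in both iTreg columns.

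The opened regions lay away from gene ends and mostly inside the genes, as did the 192 regions as a whole. None of the 39 was within 1 kb of a gene end, beside 5.44% of all opened regions and 16.4% of all regions. Of the 192 regions only 6 (3.12%) were, so this is not particular to the opened ones. Of the 39, 32 had their midpoint in the gene body (82.1%, beside 56.0% of all opened regions); the table of genes used here does not tell exons from introns. Genes with long bodies offer more of it: 154 of the 192 regions were in bodies, and 4 of the genes are longer than 200 kb. Another 22 regions had a peak in both iTreg libraries and no other, 11.5% of the 192 beside 16.5% of all regions. Regions with a peak in all 12 libraries numbered 32 (16.7% beside 27.9%), and those seen in 1 library only 27 (14.1% beside 14.9%).

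**Figure D4:**
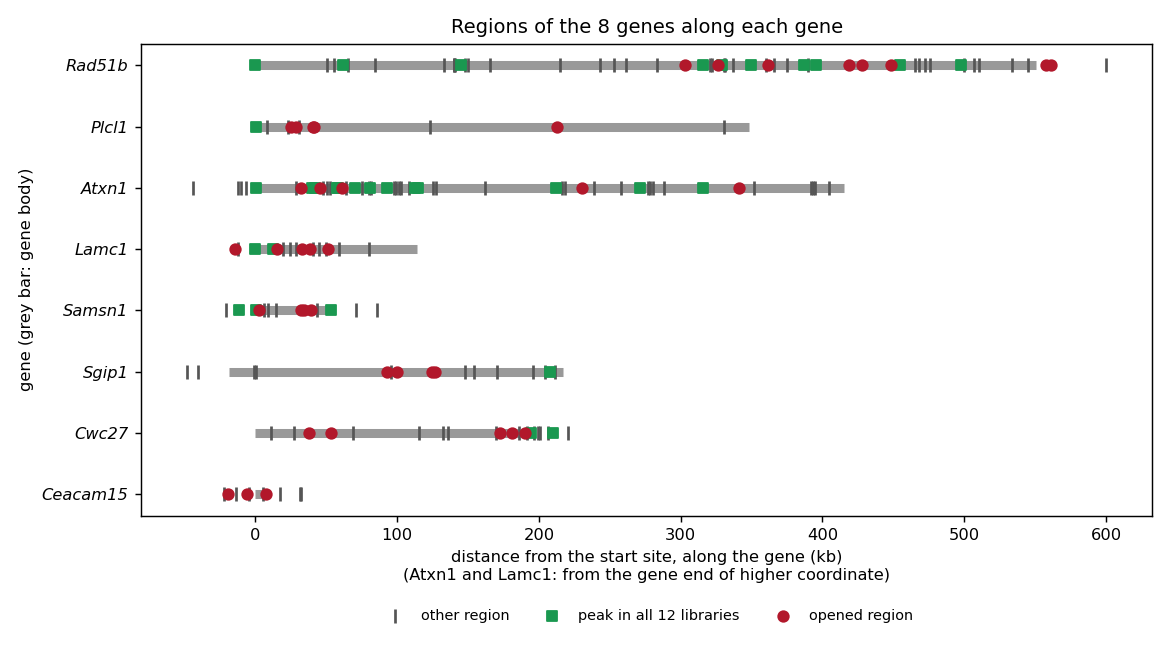
Regions of the 8 genes by distance from the start site along the gene (x axis, kb; for Atxn1 and Lamc1 from the gene end of higher coordinate); grey bars are gene bodies, red circles opened regions, green squares regions with a peak in all 12 libraries, dark ticks the rest. Opened regions of Rad51b lie 303 to 561 kb from the start, and none of the 39 lies at a gene end.

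Rad51b (chromosome 12, 79297282 to 79848260, mm10) is the longest of the genes and had 53 regions. Its 8 opened regions lay in the distal part, 303 to 561 kb from the start, 6 in the body and 2 beyond its end. The nearest gene there is Zfp36l1, which encodes an mRNA-binding protein, 259500 bp away; it had 1 opened region of 6. The start region (79295535 to 79298295) had a peak in all 12 libraries. At 79658266 to 79659214 peaks covered 688 and 743 bp in donor Treg, 490 and 461 bp in host pTreg, 230 and 927 bp in host tTreg and 419 and 490 bp in iTreg. This was the one opened Rad51b region found in all 8 Treg libraries. At 79715681 to 79715929 donor Treg had 188 and 150 bp and no other library a peak. A further 3 (79724855 to 79725291, 79745252 to 79745587 and 79854436 to 79854902) had no host pTreg peak and a host tTreg peak in replicate 2 alone, of 150, 232 and 401 bp; the middle of them also had 216 bp in iTreg replicate 2. These 4 opened regions, the one at 79715681 among them, were in donor Treg and not in host pTreg. With 79429806 to 79430442, which is no opened region and had a peak in all 4 conventional libraries, Rad51b had 5 such regions.

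Atxn1 (chromosome 13, 45549755 to 45964991) had 51 regions, of which 13 had a peak in every library and 5 were opened, all in the body. Its end at the higher coordinate lay in a region of 4108 bp (45962845 to 45966952) present in all 12. At 45903528 to 45904340 peaks covered 241 and 225 bp in donor Treg, 586 and 268 bp in host pTreg, 624 bp in host tTreg replicate 2 and 720 and 748 bp in iTreg, with none in host tTreg replicate 1. At 45932391 to 45932851 donor Treg had 354 and 406 bp, host pTreg 429 and 355 bp, host tTreg 341 and 390 bp, and iTreg no peak. The iTreg libraries were therefore widest at the former and empty at the latter. Against host Tconv alone Atxn1 had 8 donor Treg regions and none in reverse, because the 3 further ones (45687506 to 45688020, 45914126 to 45914485 and 45971163 to 45971504) had a peak in 1 donor Tconv library.

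Cwc27 (chromosome 13, 104631140 to 104817110) had 21 regions and 5 opened ones, 4 in the body and 1 just beyond its lower end (104626764 to 104627437). That region had 620 and 447 bp in donor Treg, 645 and 459 bp in host pTreg, 430 and 651 bp in host tTreg and none in iTreg. The region at 104763061 to 104763847 had 784 and 782 bp in iTreg but 224 and 150 bp in donor Treg, 237 bp in host pTreg replicate 1 and no host tTreg peak. It was thus wide in culture and narrow in donor Treg. Srek1ip1 begins 60 bp away, and the region over the Cwc27 start (104816297 to 104818179), present in all 12 libraries, was assigned to it.

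Plcl1 (chromosome 1, 55405946 to 55754285) had 11 regions, all in its body, and 5 of them were opened. Its protein binds inositol trisphosphate. The start region (55405196 to 55406958) was present in all 12 libraries, and 4 of the opened regions lay close together between 55430428 and 55447196. At 55618323 to 55619186 peaks covered 376 and 497 bp in donor Treg, 635 and 389 bp in host pTreg, 150 and 533 bp in host tTreg and 759 and 864 bp in iTreg. At 55446244 to 55446549 donor Treg had 249 and 257 bp and iTreg 150 and 188 bp, with no host Treg peak. The next region, 55446864 to 55447196, had the converse pattern: 247 and 226 bp in donor Treg, 273 and 224 bp in host pTreg, 190 and 333 bp in host tTreg and none in iTreg. Both neighbouring regions were thus in donor Treg, and 1 each in host Treg and iTreg. All these peaks but the 333 bp in host tTreg were under 300 bp, and the narrowest peaks of every library have 150 bp. Without peaks under 300 bp Plcl1 kept 1 opened region, so this contrast rests on narrow peaks.

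Samsn1 (chromosome 16, 75858794 to 75909266), the shortest of the genes but for Ceacam15, had 14 regions, 9 of them in the body, and 4 opened ones, 2.43 to 38.9 kb from the start. Its product, also called HACS1 or SLy2, is known as a brake on B cell activation. At 75906374 to 75907307, the opened region nearest to the start, peaks covered 416 and 716 bp in donor Treg, 849 and 920 bp in host pTreg, 748 and 895 bp in host tTreg and 564 and 802 bp in iTreg. All 8 Treg libraries had a peak there, as at 75874304 to 75875074. At 75877047 to 75877529 donor Treg had 247 and 332 bp and iTreg 464 and 444 bp, and no host Treg library a peak. The 3 Samsn1 regions that all host Treg and neither iTreg library had (75894161 to 75894912, 75899809 to 75900621 and 75902939 to 75903555) were no opened regions, as donor Tconv had a peak at each. Samsn1 also held a region of the opposite kind outside its body: at 75823203 to 75823704 donor Tconv had 449 and 328 bp, host Tconv 317 and 502 bp, donor Treg replicate 1 188 bp and no other Treg library a peak.

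Sgip1 (chromosome 4, 102741302 to 102977426) had 16 regions; its 4 opened ones had midpoints within 34 kb of each other in the middle of the body. At 102859216 to 102860141 peaks covered 785 and 684 bp in donor Treg, 745 and 816 bp in host pTreg, 616 and 926 bp in host tTreg and 150 and 296 bp in iTreg, the narrowest of the Treg groups. No Sgip1 region lay within 1 kb of an end of the body. The start site given by the promoter table lies 18.833 kb inside the body. At that site the iTreg libraries alone had a peak (102760065 to 102760468, covering 335 and 362 bp). A second iTreg region, 102759119 to 102759557, lay just upstream. In all, 5 of the 16 Sgip1 regions were in both iTreg libraries and no other.

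The promoter sequences below are the 250 bases before the start on the gene's own strand (RefSeq, GRCm38.p6). They are shown for 3 genes that differed at the start site used. Sgip1 (chr4:102759885-102760134, + strand), whose start site used here lies inside its body, had a peak in iTreg only. Samsn1 (chr16:75909267-75909516, - strand) had a peak in all 12 libraries (75908619 to 75909620). Ceacam15 (chr7:16675706-16675955, - strand) had no peak in any. Capitals mark matches to the motifs searched, on either strand.
Sgip1: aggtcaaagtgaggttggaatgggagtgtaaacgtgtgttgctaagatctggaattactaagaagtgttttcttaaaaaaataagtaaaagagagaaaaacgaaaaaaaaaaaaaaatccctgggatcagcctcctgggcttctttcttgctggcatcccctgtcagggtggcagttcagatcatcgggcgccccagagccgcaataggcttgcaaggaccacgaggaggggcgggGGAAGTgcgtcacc
Samsn1: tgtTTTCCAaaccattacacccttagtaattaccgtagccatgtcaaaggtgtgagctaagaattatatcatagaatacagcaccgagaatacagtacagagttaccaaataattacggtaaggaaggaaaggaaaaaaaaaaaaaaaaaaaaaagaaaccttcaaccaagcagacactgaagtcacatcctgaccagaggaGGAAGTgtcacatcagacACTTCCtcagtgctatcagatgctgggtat
Ceacam15: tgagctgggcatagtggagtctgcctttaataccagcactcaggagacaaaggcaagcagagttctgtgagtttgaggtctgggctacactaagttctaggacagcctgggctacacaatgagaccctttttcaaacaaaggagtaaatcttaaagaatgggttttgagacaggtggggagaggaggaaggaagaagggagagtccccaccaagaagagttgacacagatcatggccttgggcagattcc

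The motifs, with the share of the 27025 promoters of this length in the table that hold each, were ETS GGAAGT (20.0%), RUNX TGTGGT (14.2%), AP-1 TGANTCA (6.87%), STAT5 TTCNNNGAA (7.18%), forkhead TGTTTAC (3.09%), TCF/LEF CTTTGAA (4.64%), NF-kappaB GGGANTTCC (1.42%), NFAT TGGAAA (18.7%) and CRE TGACGTCA (1.62%). Sgip1 held 1 ETS match, Samsn1 2 ETS matches and 1 NFAT match, and Ceacam15 and Plcl1 no match. Rad51b held 1 NFAT match, and Cwc27 1 NFAT match and an ETS and an NF-kappaB match that overlap. Promoters of 6 of the 8 genes were in the table; those of Atxn1 and Lamc1 were not used here.

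Lamc1 (chromosome 1, 153218922 to 153332786) had 16 regions and 5 opened ones, and both host pTreg libraries had a peak at all 5. At 153299430 to 153300840 peaks covered 760 and 757 bp in donor Treg, 1355 and 692 bp in host pTreg, 313 and 803 bp in host tTreg and none in iTreg. At 153317529 to 153318171 they covered 271 and 417 bp in donor Treg, 419 and 462 bp in host pTreg, 271 and 637 bp in host tTreg and none in iTreg. No opened Lamc1 region had a peak in both iTreg libraries, and 1 (153281542 to 153282070) had one in iTreg replicate 2 alone, of 208 bp. Lamc1 lies 15 Mb from Ptprc, the gene of CD45, whose alleles tell donor from host cells. The part of this linkage in the Lamc1 values was not tested. Of the Lamc1 regions, 1 (153303398 to 153305236) was in both donor Tconv and neither host Tconv library. Regions of Rad51b, Samsn1, Cwc27 and Ceacam15, on chromosomes 12, 16, 13 and 7, had the same pattern. Examples start at 79381481, 75899809, 104617140 and 16644218, and the share over all regions was not counted.

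Ceacam15 (chromosome 7, 16671331 to 16675705) is 4375 bp long, and all 10 regions assigned to it lay outside its body. None had a peak in a host Tconv library, and 2 had one in donor Tconv. At 16681125 to 16682191 peaks covered 824 and 699 bp in donor Treg, 742 and 623 bp in host pTreg, 425 and 842 bp in host tTreg and 815 and 1067 bp in iTreg. At 16668252 to 16668942 they covered 314 and 392 bp in donor Treg, 401 and 449 bp in host pTreg, 275 and 651 bp in host tTreg and 668 and 640 bp in iTreg. Both were thus in all 8 Treg libraries. Ceacam9, the next gene, 46224 bp away, had 5 regions and none opened.

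Host Treg and iTreg libraries, none of which served to choose the genes, differed at 53 of the 176 regions with a peak in either. Of these 24 were in all 4 host Treg and neither iTreg library (13.6%, beside 2.14% of all regions), and 29 in both iTreg and no host Treg library (16.5%, beside 29.8%). Of the 24, 11 were opened regions and had thus entered the choice of genes, so the former share is not independent of it. Rad51b and Atxn1 had 6 each of the host Treg kind, Lamc1, Samsn1 and Cwc27 3 each, and Plcl1, Sgip1 and Ceacam15 1 each. The iTreg kind numbered 7 at Cwc27, 6 each at Sgip1 and Rad51b, 3 at Ceacam15, 2 each at Plcl1, Atxn1 and Lamc1, and 1 at Samsn1. No p is given, as 4 libraries against 2 cannot go below 0.0667 in Fisher's exact test. With lists of equal length the balance turned, with 32 regions of the host Treg kind (8.62% of all regions) and 3 of the iTreg kind (11.8% of all regions).

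**Figure D5:**
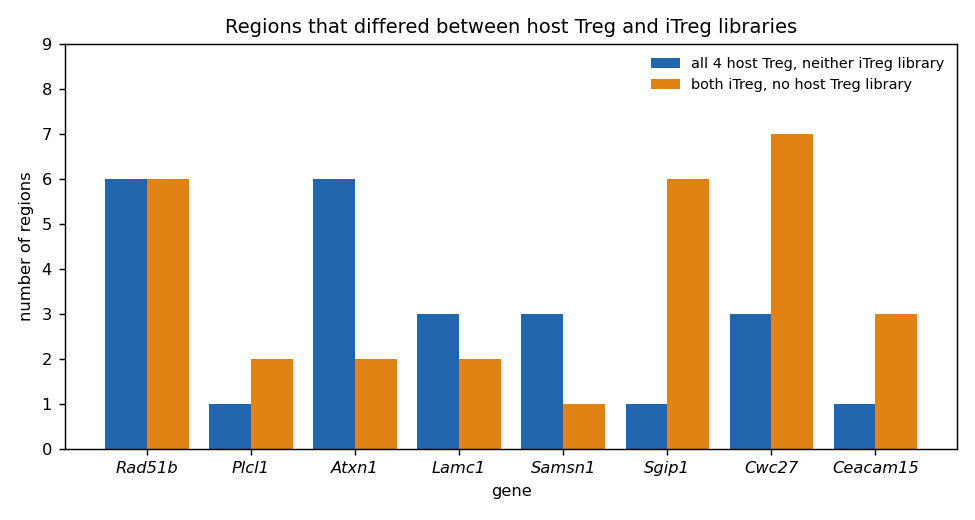
Number of regions (y axis) at each gene (x axis) with a peak in all 4 host Treg and neither iTreg library (blue) or in both iTreg and no host Treg library (orange). Atxn1 has 6 and 2, and Sgip1 1 and 6.

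Host pTreg and host tTreg differ in the Nrp1 gate. Of 134 regions with a peak in either, 4 were found in host pTreg alone, in both of its libraries (3.35% of all regions), 2 of them at Sgip1 and 1 each at Atxn1 and Cwc27. In reverse there were 2, both at Rad51b (0.452% of all regions). Leaving out 1 library takes away a condition, so these counts rise by construction, and such runs do not show that they rest on it. The host pTreg count was 17 without host tTreg replicate 2 and 12 without host pTreg replicate 2. The reverse count was 16 without host tTreg replicate 1 and 6 without host pTreg replicate 1. The shares of all regions were higher too, at 12.6% and 11.9%, and in reverse at 6.2% and 2.26%. Donor Treg, whose values entered the choice, had 10 of 139 regions that host pTreg lacked and 6 in reverse, beside 2.09% and 4.33% of all regions. Against host tTreg it had 6 of 137 and 2 in reverse, beside 3.53% and 1.4%. Atxn1, Lamc1, Sgip1 and Ceacam15 had no region in donor Treg only in either comparison. With single libraries left out these counts rose as well, again with fewer conditions to meet. Without host pTreg replicate 1 the 10 became 19, and without host tTreg replicate 2 the 6 of donor Treg became 24. Without donor Treg replicate 1 the 10 and the 6 became 16 and 14. The reverse counts became 14 and 6 without donor Treg replicate 2. They were 13 against donor Treg without host pTreg replicate 2, 12 without host tTreg replicate 1, and 4 for host tTreg without donor Treg replicate 1. The shares of all regions were higher too, between 2.17% and 12.3% in these runs.

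The 6 host and cultured Treg libraries were compared with the 4 conventional ones, region by region, with Fisher's exact test (two-sided). It was adjusted by Benjamini and Hochberg over 21254 regions, those whose number of peaks allows an unadjusted p below 0.05. The 4 conventional libraries all carry run code BW13, and the 6 Treg libraries DR31 or none. Group and run cannot be told apart in this test, which also treats libraries of unknown animals as independent. No region passed the adjusted threshold (0.0% called), at the 8 genes or elsewhere. The smallest adjusted p of Fisher's exact test was 0.0708. Even a region that separates 6 from 4 libraries completely cannot go below an unadjusted p of 0.00476 in this test. The absence of calls therefore does not show a lack of difference. At the 8 genes, 10 opened regions had the adjusted p of 0.0708 (Fisher's exact test), each with a peak in all 6 against 0 of 4 libraries. They were 2 each at Plcl1, Samsn1 and Ceacam15 and 1 each at Rad51b, Atxn1, Sgip1 and Cwc27. For them the 0 of 4 is set by the definition of opened. The Samsn1 region at 75823203 had the same adjusted p in the other direction, with 0 of 6 against 4 of 4. At an unadjusted p under 0.05, 14 of the 59 regions tested were higher in Treg (23.7%, beside 4.24% of all regions tested) and 4 lower (6.78%, beside 11.9%). The conventional libraries took part in the choice of genes, so these shares are not independent of it. With lists of equal length, 6 of the set's 52 tested regions passed as higher in Treg (adjusted p = 0.0411, Fisher's exact test), beside 3.24% of all regions tested. These were 3 at Ceacam15, 2 at Samsn1 and 1 at Plcl1. In the other direction 0 of the set passed, beside 1018 of 12204 over all regions. All 6 had a peak in both donor Treg libraries in that setting, so these calls too are not independent of the choice.

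Among the relatives of Plcl1, 11 genes that encode phospholipases C or the like, 10 had a region and 3 an opened one, with 5 opened regions of 73 (6.85%, beside 1.46% of all regions). These were Plcl2, the paralogue of Plcl1 (2 of 31), Plcb4 (2 of 16) and Plcd1 (1 of 3). Against each other, donor Treg alone had 6 of the 73 and donor Tconv alone 11. Over all regions with a peak in these groups the shares were 2.41% and 19.9%. For Plcl2 the counts were 2 and 4. The 7 spliceosomal or nuclear cyclophilin genes had no opened region of 15, and the 14 other carcinoembryonic antigen genes none of 16. Atxn1l and Cic together had none of 7, Sash1 and Sash3 none of 10, and Fcho1 and Fcho2 none of 13. Among 4831 other genes with at least 5 regions, those whose share of regions with a peak followed the mean share of the 8 genes most closely over the 12 libraries were Hopx (Pearson r = 0.95), Ky (r = 0.93), Lrrc32 (r = 0.93), H2-Eb1 (r = 0.93) and Rgs8 (r = 0.93). The libraries of a group and the length of a list are shared by all genes, so these values only describe likeness. Lrrc32, whose product GARP holds latent TGF-beta on Treg, had 3 opened regions of 8, Ky and Rgs8 2 each, and Hopx and H2-Eb1 1 each.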

How the data were processed

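ATAC-seq peak lists of 12 libraries were used, 1 per library. The submitters' processing notes name HOMER 4.10, Bowtie2 2.3.3 and bedtools, and the build mm10. Their roles and settings, any Tn5 shift, and what was intersected in these lists named as intersections, are not stated: not given in the sources used here. The deposited score, 1000 at each peak, was not used. The other values the authors deposited are peak starts and ends, counted from 0 in the files and from 1 here; no signal height was analysed.

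Peaks sharing at least 1 bp were merged into regions (pandas 2.3.3, numpy 2.4.6; merging was checked against bedtools and the test on simulated data). A library had a region if any of its peaks fell in it. Regions went to the protein-coding gene of the RefSeq table (GRCm38.p6, the assembly of mm10) whose body held the midpoint (the nearest end deciding among several), else to the nearest gene end within 50 kb; 89.9% were assigned, and all 8 genes and the relatives described were found; some relatives are not reported here. Widths are the bp of a region covered by a library's peaks. Groups and replicate numbers came from the titles; the 2 libraries of a group were not identical (Jaccard index 0.746 to 0.856). Fisher's exact test used scipy 1.17.1; its p-values measure only the spread between these libraries, which may be technical. Regions were named when opened or when they differed between host Treg and iTreg; further ones, such as start regions and the Samsn1 region lower in Treg, were chosen after their values were seen. Genes of like pattern were the 5 with the highest correlation. The genes, lists, tests and alternatives were chosen with earlier results of these data known. Alternatives were equal list lengths (the 28394 widest peaks), no peaks under 300 bp, at least 50% of a region covered, merging within 100 bp, a 10 kb window, gene bodies only, and leaving out each library.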

Additional observations from a re-analysis of the deposited data

How the results depend on the processing

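With equal list lengths, 37 regions were opened (4.85% of all regions), and 6 of these were in both iTreg libraries, beside 21.2% of all opened regions. Regions in both iTreg and no host Treg library numbered 3 (11.8% of all regions). Those in host tTreg only against host pTreg numbered 8 (1.74% of all regions), and Fisher's exact calls 6. The host Treg kind without iTreg numbered 32 (8.62% of all regions). Without peaks under 300 bp the opened regions numbered 24, and those in both host pTreg, host tTreg and iTreg libraries 17, 15 and 8 (over all regions 1.34% were then opened, and 66.5%, 56.2% and 39.4% of those were in these groups). That setting gave 19 regions in iTreg and no host Treg library (29.1% of all regions). Against each other, 2 were in host pTreg only and 0 in host tTreg only (3.39% and 0.271% of all regions). Against donor Treg, 3 were in host pTreg only and 0 in host tTreg only (4.05% and 0.979%). With at least 50% of a region covered, 31 regions were opened (1.46% of all regions). Of these, 15 were in both host tTreg and 6 in both iTreg libraries, beside 51.2% and 32.6% of all opened regions. Then 0 regions were in host tTreg only against host pTreg (0.407% of all regions). With the 10 kb window or gene bodies only, 2 regions were in host pTreg only against host tTreg (3.35% of all regions). Per gene, the opened regions moved by over 1.5 times under these settings in the following cases, each time to fewer. Plcl1 had 3 with equal lengths, 1 without narrow peaks and 2 with 50% covered. Sgip1 and Cwc27 had 2 each with equal lengths and without narrow peaks. Lamc1 had 3 without narrow peaks, Atxn1 3 with 50% covered and Ceacam15 0 with gene bodies only. Equal lengths gave the other genes more than the main count: Rad51b 9, Atxn1 6, Lamc1 6, Samsn1 5 and Ceacam15 4. Merging within 100 bp moved no count by over 1.5 times. The cause of these shifts was not tested, beyond the fewer peaks or regions that some settings hold by construction.

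Leaving out single libraries gave 39 to 48 opened regions. Of these, 26 to 30, 23 to 34 and 15 to 19 were in both host pTreg, host tTreg and iTreg libraries. The 48 came without donor Treg replicate 1, when 2.53% of all regions were opened. That run also gave the 19, beside 39.1% of all opened regions. The 30 came without host pTreg replicate 2 (79.2% of all opened regions) and the 34 without host tTreg replicate 1 (88.1%). Regions in all host Treg and no iTreg library ranged from 24 to 29 and the reverse from 29 to 37. Without host tTreg replicate 1 the former were 29 (3.06% of all regions), and without iTreg replicate 1 the reverse were 37 (41.2%). Those in host pTreg only against host tTreg ranged from 4 to 17 and the reverse from 2 to 16. The highest counts stood beside 12.6% and 6.2% of all regions. Donor Treg regions that host pTreg lacked ranged from 10 to 19 and the reverse from 6 to 14. Those that host tTreg lacked ranged from 6 to 24 and the reverse from 2 to 12. At the highest of these counts the shares of all regions were, in this order, 6.73%, 7.73%, 12.3% and 9.9%. A group left with 1 library has fewer conditions to meet, so such counts rise by construction. Fisher's exact test called 0 regions of the 8 genes in every such run, and this too does not show a lack of difference. No paired analysis was possible because the counts come from single patterns over libraries and nothing in the labels ties equal replicate numbers to 1 animal or day. The unknown read depth limits every absence of a peak.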

Other observations

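Some regions of the 8 genes were in host Treg without a peak in both donor Treg libraries. All 4 host Treg and no conventional library had a peak at 25 of the 192 regions (1.18% of all regions), 22 of which were opened. The other 3 were at Rad51b (79671810 to 79672248), Lamc1 (153252721 to 153253184) and Atxn1 (45856218 to 45856486). At the Rad51b and Lamc1 regions donor Treg replicate 2 alone had a peak, and at the Atxn1 region neither donor Treg library did. The Lamc1 region also had a peak in iTreg replicate 1; the other 2 had none in iTreg.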
